A study of Rattus norvegicus with 18 samples.

Results

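The levels of 10 genes that handle stored fat in liver cells were compared among control, NASH and NASH-CH rats. They encode the lipid droplet coat proteins Plin2, Plin4 and Plin5, the droplet fusion proteins Cidea, Cideb and Cidec, the triglyceride lipase Pnpla2 with its inhibitor G0s2, the fatty acid receptor Cd36 and the liver fatty acid binding protein Fabp1. The genes were picked by symbol among 32623 genes measured in rat liver, 1 row matched each symbol, and 9 of the 10 had enough reads to be tested among 12904 genes. Plin4 was the gene that could not be tested.

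Whole livers came from male Wistar rats, with 1 RNA library per rat and 6 rats in each of 3 groups. Control rats ate standard chow and drank plain water for 12 weeks. NASH (non-alcoholic steatohepatitis) rats inhaled the hepatotoxin CCl4 and drank phenobarbital over 6 weeks, then ate a high-fat, high-cholesterol diet (HFCD) for 4 weeks, a total of 10 weeks. NASH-CH rats, the group with cirrhosis, took CCl4 and phenobarbital for all of 24 weeks, with the HFCD added in the final 16 weeks. The controls received neither CCl4, phenobarbital nor HFCD and were kept for another time than either model, so the effects of these agents and of age cannot be told apart. By this protocol, taken from the methods, the NASH rats were off CCl4 during their HFCD weeks whereas the NASH-CH rats were not. The paper's discussion likewise describes the NASH rats as on diet alone after CCl4 was stopped. The deposited design text instead puts CCl4 and the diet together over 10 weeks and over 24 weeks. The paper and that text thus differ on whether CCl4 was still given to the NASH rats at the end. Rats shared cages in pairs, and the labels do not say which.

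Triglyceride is stored in cells as droplets, each wrapped in a single phospholipid layer that carries coat proteins. Perilipins (the Plin family) cover the droplet and hold lipases away from it or bring them to it, while CIDE proteins gather where droplets touch and let lipid pass from the smaller to the larger one. Adipose triglyceride lipase, the product of Pnpla2, starts the breakdown of the stored triglyceride and is blocked by G0s2. Cd36 takes fatty acids in at the cell surface, and Fabp1 carries them through the hepatocyte cytosol.

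Totals ran from 19498516 to 29491895 counts per library in the control and NASH rats and from 44680345 to 60117806 in the NASH-CH rats, so NASH-CH values rest on more reads. Levels are given as CPM, counts relative to a library total that was scaled by the trimmed mean of M-values (TMM), and they are not divided by gene length, so levels of different genes are not compared. The scaling factors were 0.790 to 1.03 for control, 0.983 to 1.15 for NASH and 0.970 to 1.28 for NASH-CH libraries. The tissue label was checked against 6 hepatocyte genes (Alb, Ttr, Tf, Apoa1, Serpina1 and Hnf4a), whose summed level was 118677 to 177264 CPM in control rats, 80588 to 138109 CPM in NASH rats and 77299 to 127398 CPM in NASH-CH rats. Of 5 adipocyte genes, Adipoq, Lep, Retn and Plin1 were near 0 in every rat. Their highest values were 0.707, 0.101, 0.0736 and 0.0717 CPM in that order. The other gene of that list, Cfd, had 4.86 to 5.80 CPM in control, 5.28 to 6.86 CPM in NASH and 2.73 to 5.27 CPM in NASH-CH rats. In bulk tissue, fewer cells of a type and less RNA per cell cannot be told apart.

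In NASH-CH livers Cd36 rose and Fabp1 fell against controls, 2 of 9 genes with an adjusted p under 0.05 (limma-voom, Benjamini-Hochberg over all tested genes), where 17% of all tested genes passed in either direction. Without adjustment 31.7% of all genes had a p under 0.05 in NASH-CH, and Plin2, Cidea, G0s2, Cd36 and Fabp1 were among them. In NASH livers 0 of the 9 passed by limma and 3.12% of all genes did. Without adjustment 21.5% of all genes had a p under 0.05 in NASH, and Plin2, Cidea and Fabp1 were among them. DESeq2 called 2 of the 9 in NASH, Cidea and Fabp1, where it called 9.52% of all genes, and 4 in NASH-CH, which were Plin2, Cidea, Cd36 and Fabp1, where it called 22% of all genes. The quasi-likelihood test of edgeR called 0 of the 9 in NASH and 2 in NASH-CH, beside 5.05% and 19% of all genes. Between NASH-CH and NASH livers 0 of the 9 passed by limma, edgeR or DESeq2, where 4.2% of all genes passed by limma (1.81% higher and 2.39% lower), 4.78% by edgeR and 7.35% by DESeq2, and 17.5% had an unadjusted p under 0.05. Plin5 and Cd36 were the genes of the set with an unadjusted p under 0.05 there. The median log2 fold change of the 9 genes was -0.12 in NASH and -0.29 in NASH-CH against control, beside 0.01 in each comparison for all genes tested.

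**Figure D1:**
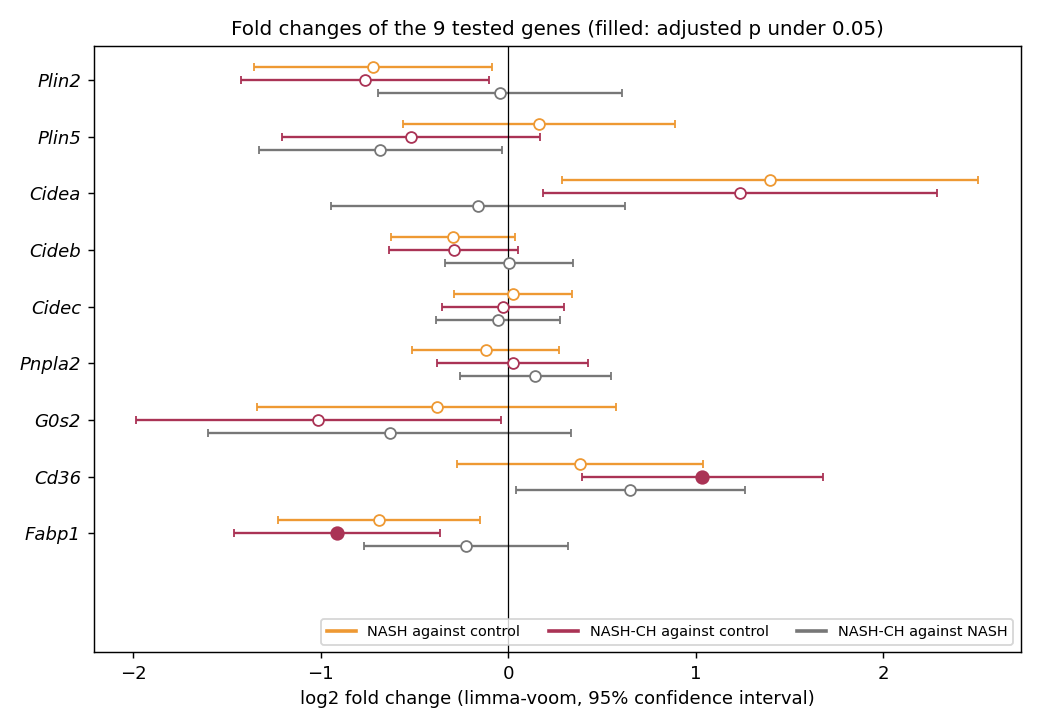
Log2 fold change (x axis) of the 9 tested genes (y axis) in the 3 comparisons, with the 95% confidence interval from limma-voom as bars and filled points for an adjusted p under 0.05. The filled points are Cd36 at 1.03 and Fabp1 at -0.91, both in NASH-CH against control.

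Plin2, the coat protein found on hepatocyte droplets in most conditions, had 64.4, 171 and 270.3 CPM as the lowest, median and highest of the control rats. The NASH rats had 52.7, 105 and 132 CPM, and the NASH-CH rats 60.6, 81.2 and 166 CPM. All 12 treated rats lay below the control mean, but control rat 6, at 64.4 CPM, lay among the treated rats and the groups overlapped. The log2 fold change was -0.72 (SE 0.30) in NASH, with an adjusted p of 0.174, and -0.76 (SE 0.32) in NASH-CH, with an adjusted p of 0.104 (limma). Without control rat 6 it was -0.96 in NASH (limma adjusted p = 0.0363) and -1.0 in NASH-CH (limma adjusted p = 0.0177), against ranges over all alternatives of 0.0266 to 0.357 and 0.0177 to 0.195. With 1 rat at a time left out, limma called Plin2 in 1 of 18 fits in NASH and in 2 of 18 in NASH-CH.

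Plin5, a coat protein of tissues that burn fat, where it ties droplets to mitochondria, had low counts. Control rats had 0.887, 1.03 and 2.04 CPM, NASH rats 0.643, 1.33 and 2.08 CPM and NASH-CH rats 0.429, 0.883 and 1.45 CPM. The groups overlapped, control rat 6 and NASH rat 3 were the highest, and 3 NASH-CH rats lay below every control. Its log2 fold change was 0.16 (SE 0.35) in NASH (limma adjusted p = 0.829) and -0.52 (SE 0.33) in NASH-CH (limma adjusted p = 0.292). Plin4, a perilipin of adipocytes and muscle, was counted 0 to 2 times in control, 0 to 4 times in NASH and 1 to 8 times in NASH-CH libraries. Its summed counts were 5, 8 and 26 in that order, with deeper NASH-CH libraries, and 2 control and 3 NASH rats were at 0. A count of 0 allowed up to 3 counts, or 0.108 to 0.187 CPM in a control library, 0.0948 to 0.134 CPM in a NASH library and 0.0390 to 0.0655 CPM in a NASH-CH library, which covers counting error alone.

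**Figure D2:**
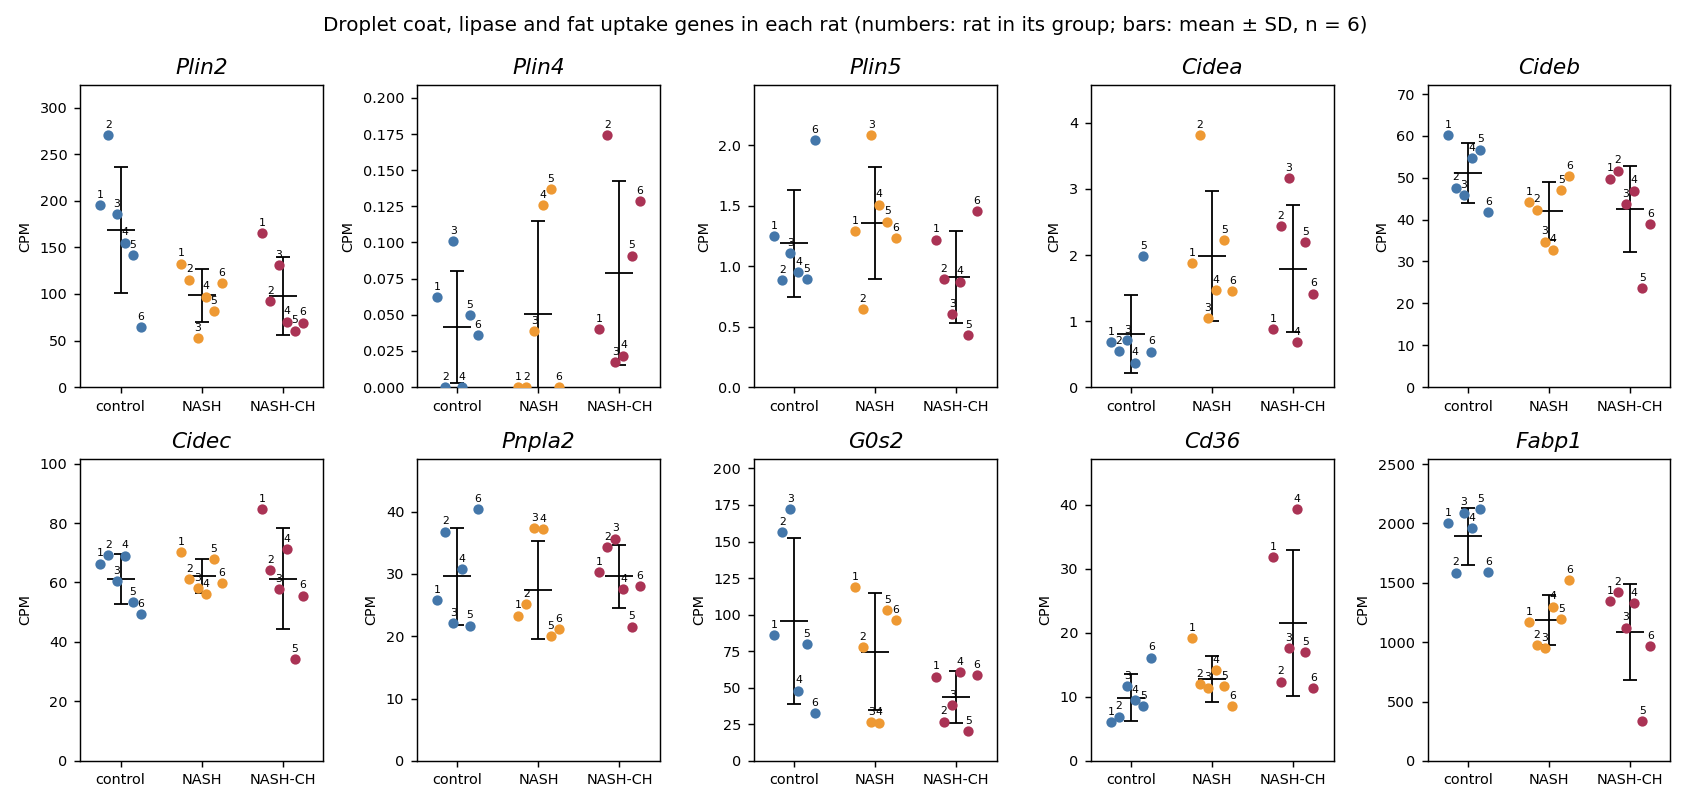
Level in CPM (y axis, from 0) of each of the 10 genes in each rat (points, numbered within the group), with the mean ± SD of 6 rats as bars. Fabp1 is the gene with every treated rat below every control, and 4 of 6 NASH-CH rats exceed every control for Cd36.

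The CIDE genes differed among themselves. Cidea, which is best known from brown fat and appears in fatty livers, had 0.372, 0.613 and 1.98 CPM in control rats, 1.04, 1.67 and 3.81 CPM in NASH rats and 0.677, 1.81 and 3.16 CPM in NASH-CH rats. Control rat 5, at 1.98 CPM, was the control that overlapped the treated rats most, and the other controls were at most 0.707 CPM. The log2 fold change of Cidea was the largest positive one of the set, 1.40 (SE 0.53) in NASH (limma adjusted p = 0.139) and 1.23 (SE 0.50) in NASH-CH (limma adjusted p = 0.0988). Cidea was above the control mean in 6 of 6 NASH and 5 of 6 NASH-CH rats, and neither change passed. A two-sided exact permutation test of log2 CPM gave p = 0.0108 in NASH and p = 0.0390 in NASH-CH, not adjusted for the number of genes. DESeq2 put both below the threshold, with adjusted p of 0.0342 and 0.0348, where the alternatives spanned 0.0342 to 0.260 and 0.0348 to 0.206.

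Cideb, the CIDE protein of hepatocytes, which also takes part in loading lipoproteins with fat, had 41.8, 51.2 and 60.1 CPM in control, 32.8, 43.3 and 50.5 CPM in NASH and 23.7, 45.3 and 51.7 CPM in NASH-CH rats. The groups overlapped and NASH-CH rat 5 was the lowest of all. Its log2 fold changes were -0.30 (SE 0.16; limma adjusted p = 0.285) and -0.29 (SE 0.16; limma adjusted p = 0.232). Cidec, which drives the growth of large droplets in fat cells and steatotic liver, had 49.4, 63.4 and 69.2 CPM in control, 56.0, 60.5 and 70.2 CPM in NASH and 34.2, 60.9 and 84.7 CPM in NASH-CH rats. The NASH-CH rats enclosed the range of the other groups, from rat 5 at the low end to rat 1 at the high end. The 95% interval of the log2 fold change of Cidec was -0.29 to 0.34 in NASH and -0.35 to 0.30 in NASH-CH.

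Pnpla2, which starts triglyceride breakdown, had 21.7, 28.3 and 40.4 CPM in control, 20.1, 24.3 and 37.4 CPM in NASH and 21.5, 29.2 and 35.7 CPM in NASH-CH rats. The 3 groups covered nearly the same range, and the 95% interval of the log2 fold change was -0.52 to 0.27 in NASH and -0.38 to 0.43 in NASH-CH. G0s2, its inhibitor, had 32.5, 82.9 and 172 CPM in control, 26.2, 87.1 and 119 CPM in NASH and 20.2, 47.8 and 60.8 CPM in NASH-CH rats. All 6 NASH-CH rats lay below the control mean, and 2 of them below every control. The log2 fold change of G0s2 was -0.38 (SE 0.46; limma adjusted p = 0.674) in NASH and -1.01 (SE 0.46; limma adjusted p = 0.141) in NASH-CH, with 95% intervals of -1.34 to 0.58 and -1.99 to -0.04.

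The balance of inhibitor to lipase was taken within each library as the difference of log2 CPM between G0s2 and Pnpla2, in which the scaling of the library nearly cancels. It is not a ratio of molecules, since neither gene was divided by its length. Control rats had -0.32, 1.81 and 2.96, NASH rats -0.51, 1.90 and 2.36 and NASH-CH rats -0.36, 0.51 and 1.14. Control rat 6 and NASH rats 3 and 4 lay below the others of their groups, with low G0s2 and high Pnpla2 in each of the 3 rats. The groups overlapped, and the SD among 6 rats was 1.16 for the control, 1.38 for the NASH and 0.66 for the NASH-CH group.

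**Figure D3:**
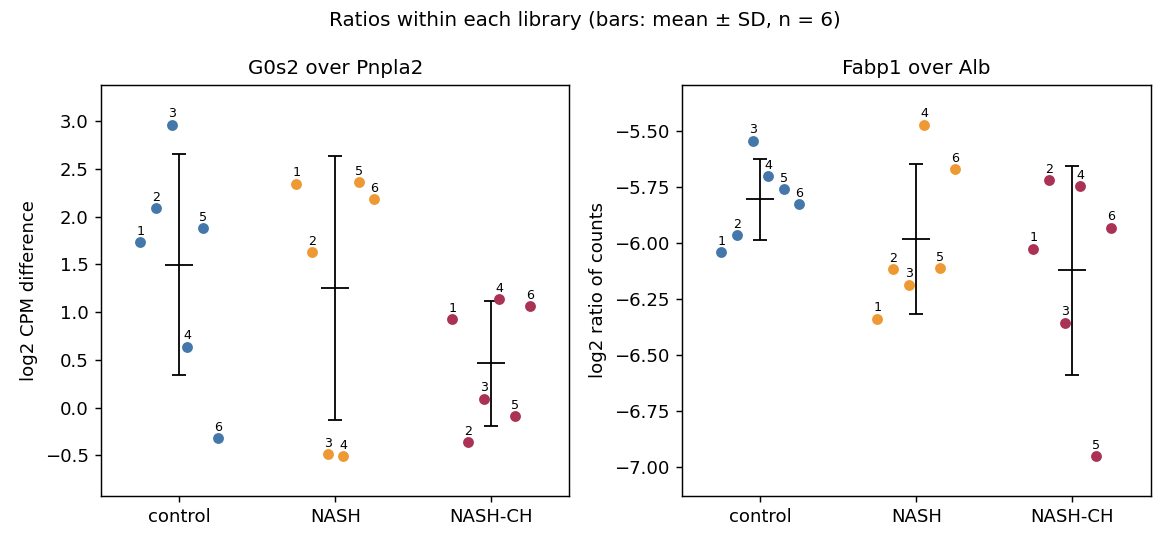
Left, difference of log2 CPM between G0s2 and Pnpla2 (y axis), and right, log2 ratio of Fabp1 to Alb counts (y axis), in each rat (points, numbered within the group) with the mean ± SD of 6 rats as bars. Control rat 6, NASH rats 3 and 4 and NASH-CH rats 2 and 5 sit below 0 on the left, and NASH-CH rat 5 is lowest on the right at -6.95.

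Cd36 (ENSRNOG00000040108) rose in NASH-CH livers. Control rats had 6.11, 9.06 and 16.1 CPM, NASH rats 8.50, 11.8 and 19.2 CPM and NASH-CH rats 11.4, 17.3 and 39.3 CPM. NASH-CH rats 4 and 1, at 39.3 and 31.8 CPM, stood above the rest, 4 of 6 NASH-CH rats exceeded every control, and the groups overlapped through control rats 3 and 6, at 11.7 and 16.1 CPM. The log2 fold change was 1.03 (SE 0.31, 2.05-fold) in NASH-CH, with a limma adjusted p of 0.0271, while it was 0.38 (SE 0.31) in NASH, with a limma adjusted p of 0.514. The difference between the models, 0.65 (SE 0.29), did not pass (limma adjusted p = 0.248). With 1 rat at a time left out, the NASH-CH call held in 13 of 18 fits. It was lost without control rat 1, 2, 4 or 5 or NASH-CH rat 1, at log2 fold changes of 0.89 to 1.03, and in the fit of those 2 groups alone, with an adjusted p of 0.0625 (range over alternatives 0.00222 to 0.0649). Its expected counts were not whole numbers in 18 of 18 rats, which RSEM gives where reads map to more than 1 gene. RefSeq lists the relatives Cd36l1 and Cd36-ps1 on the same chromosome, 4.

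Fabp1 (ENSRNOG00000006675) fell in NASH-CH livers. Control rats had 1585, 1981 and 2121 CPM, NASH rats 949, 1183 and 1524 CPM and NASH-CH rats 334, 1225 and 1419 CPM. No treated rat reached the lowest control, and NASH-CH rat 5, at 334 CPM, stood far below the others. Groups that do not overlap were found for 7.11% of all tested genes in NASH-CH and for 3.16% in NASH against control. The log2 fold change was -0.91 (SE 0.26, limma adjusted p = 0.0230) in NASH-CH and -0.69 (SE 0.26, limma adjusted p = 0.130) in NASH, lower in 6 of 6 rats in both. A two-sided exact permutation test gave p = 0.00216 in both comparisons, the least that these group sizes permit, not adjusted for the number of genes. That value is fixed once the groups do not overlap, so it adds no further support. Between the models the difference was -0.22 (SE 0.26, limma adjusted p = 0.712), the ranges overlapped, and 3.46% of all tested genes had groups that do not overlap.

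The Fabp1 call in NASH-CH was lost in the fit of those 2 groups alone (limma adjusted p = 0.0593, range over alternatives 0.00477 to 0.0593). Without NASH-CH rat 5 the log2 fold change was -0.62 in NASH-CH and stayed called, and the NASH change, -0.68, passed (limma adjusted p = 0.00758, range over alternatives 0.00407 to 0.247). With the library total alone as scale, the highest NASH rat (1635 CPM) was above the lowest control (1599 CPM), while the NASH-CH rats stayed below at 428 to 1429 CPM. Of the 6 hepatocyte genes, Apoa1 was lower in NASH and Alb, Ttr and Apoa1 were lower in NASH-CH (limma), while the log2 fold change in NASH-CH was 0.08 for Tf (limma adjusted p = 0.806), -0.32 for Serpina1 (limma adjusted p = 0.112) and -0.01 for Hnf4a (limma adjusted p = 0.969). Of all genes 1.54% were lower in NASH and 8.6% in NASH-CH (limma). Alb, the albumin gene, had a log2 fold change of -0.51 in NASH (limma adjusted p = 0.117) and -0.61 in NASH-CH (limma adjusted p = 0.0304). Control rats had a log2 ratio of Fabp1 to Alb counts of -6.04, -5.79 and -5.54, NASH rats of -6.34, -6.11 and -5.47 and NASH-CH rats of -6.95, -5.98 and -5.72, so the groups overlapped on that scale. That ratio was chosen after the values were seen, and the part of hepatocyte content in the Fabp1 result was not tested.

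The upstream sequences of Fabp1 and Cd36 are printed because these genes carried the calls. They are the 250 bases before the annotated start, from RefSeq on the GRCr8 assembly, which is another build than that of the counts. Capitals mark matches to a direct repeat of AGGNCA with 1 base of any kind between the copies, the kind bound by the fatty acid receptor PPAR alpha and by Hnf4a, and to TATAAA, the TATA box, each searched on both strands. The windows are chr4:104749090-104749339 on the plus strand for Fabp1 and chr4:18246332-18246581 on the plus strand for Cd36.
Fabp1: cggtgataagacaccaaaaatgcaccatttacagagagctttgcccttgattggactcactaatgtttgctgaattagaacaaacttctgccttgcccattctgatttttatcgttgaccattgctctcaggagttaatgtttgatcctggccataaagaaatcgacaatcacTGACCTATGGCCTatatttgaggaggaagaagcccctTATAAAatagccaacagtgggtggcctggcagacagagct
Cd36: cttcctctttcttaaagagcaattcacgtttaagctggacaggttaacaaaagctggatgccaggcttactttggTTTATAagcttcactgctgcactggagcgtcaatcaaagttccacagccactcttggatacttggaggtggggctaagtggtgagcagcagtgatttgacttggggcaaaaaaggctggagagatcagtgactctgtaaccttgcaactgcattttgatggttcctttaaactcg

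The repeat lay in the Fabp1 window on the minus strand, 77 to 65 bases before the start, and in 123 of 33469 windows of the same length (0.368%). All 10 genes of the set had a window, and Fabp1 was the one with this match. The TATA box lay 40 to 35 bases before the Fabp1 start on the plus strand. In the Cd36 window it was on the minus strand at 175 to 170 bases, and 12.9% of all windows held a match. The matches describe these letters and not binding.

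Single rats shaped several of these genes together. NASH-CH rat 5 had the lowest level of its group for 7 of the 9 tested genes, Cd36 and Cidea excepted. Its TMM factor, 1.28, was the largest of all libraries and lowers its CPM. With the library total alone as scale, its Plin2 level of 77.6 CPM was above that of NASH-CH rat 4, 71.1 CPM. On that scale Pnpla2 was at 27.6 CPM in rat 5 and 27.9 CPM in rat 4. Control rat 6 was the lowest control for 4 genes, Plin2, Cideb, Cidec and G0s2, and the highest for 3, Plin5, Pnpla2 and Cd36. NASH rats 3 and 4 each had the lowest level of their group for 3 genes. With control rat 6 and NASH-CH rat 5 both left out, a choice made after the values were seen, Plin2 and Fabp1 were lower in NASH, and Cd36 was higher and Plin2 and Fabp1 lower in NASH-CH (limma). That fit called 1413 genes of all tested in NASH and 2519 in NASH-CH.

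**Figure D4:**
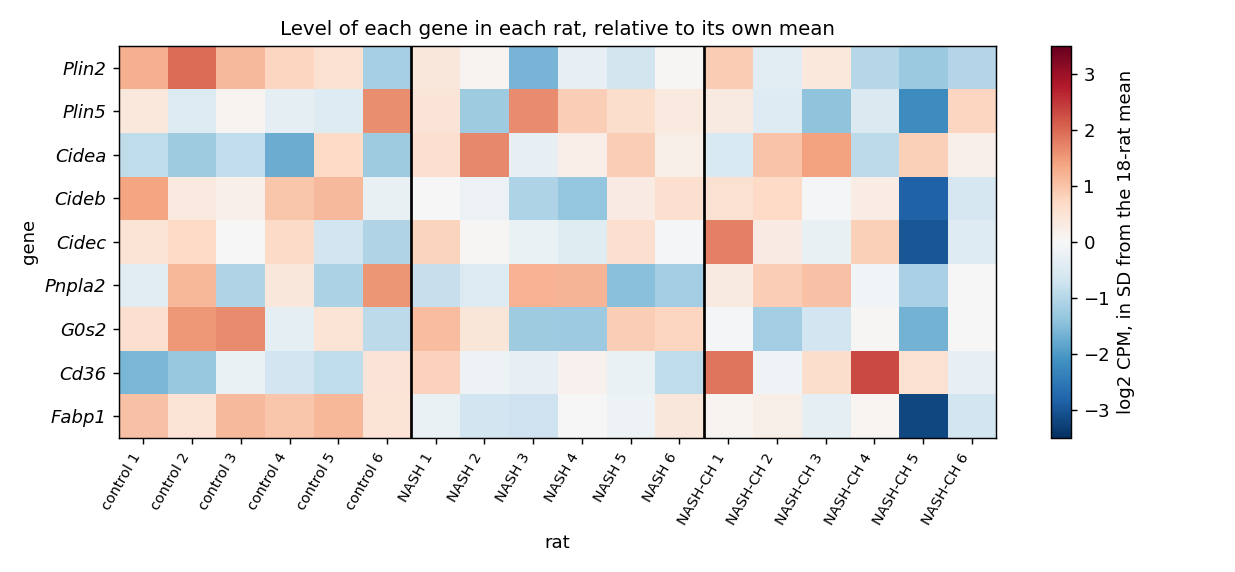
Log2 CPM of the 9 tested genes (y axis) in the 18 rats (x axis, black lines between groups), in SD from each gene's mean over all rats. NASH-CH rat 5 is the darkest blue for Cideb, Cidec and Fabp1, and control rat 6 differs from the other controls in Plin2, Plin5 and Pnpla2.

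Likeness between genes was described as the root mean square difference of their log2 CPM over the 18 rats, after each gene was scaled to mean 0 and SD 1. The value at zero correlation is 1.37. Values well below it mean that levels moved together, values well above it that they moved apart, and values near it show neither. The rats share group, depth and scaling. Over the 36 pairs of tested genes it ran from 0.517 for Cideb and Fabp1 to 1.68 for G0s2 and Pnpla2. Cideb and Cidec (0.739) and Plin2 and G0s2 (0.799) were the next closest pairs. Among 5170 genes with at least 10 CPM on average, the nearest to Fabp1 were Orai1, a calcium channel, at 0.358, Etfb, an electron carrier of fatty acid oxidation, at 0.404 and Apoa4, an apolipoprotein, at 0.411. Nearest to Plin2 were Eif4e2 (0.552), Tmem125 (0.599) and Tpst2 (0.617). Sepsecs (0.487), Bcl6b (0.505) and the peroxisomal oxidase Acox3 (0.531) were nearest to Cidec. Wipi2 (0.660), Ppm1g (0.668) and Arih2 (0.673) were nearest to Pnpla2. The median over the 5170 genes was 1.31 for Plin2, 1.29 for Cidec, 1.35 for Pnpla2 and 1.29 for Fabp1. With the library total alone as scale, 5 of these 12 genes left the nearest 3, namely Eif4e2, Tpst2, Bcl6b, Acox3 and Orai1.

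Around the set, 54 other genes of droplet fat handling were listed by role and 46 of them were tested. In NASH 1 was higher and 3 were lower than in control, and in NASH-CH 4 were higher and 6 lower (limma), where 1.58% and 8.38% of all genes were higher and 1.54% and 8.6% lower. The median log2 fold change of the 46 genes was -0.08 in NASH and -0.15 in NASH-CH. Between NASH-CH and NASH livers 2 of the 46 were higher and 0 lower (limma), where 1.81% of all genes were higher and 2.39% lower. Of 11 tested genes of droplet coat and assembly, 0 passed in NASH and 0 in NASH-CH by limma. Their log2 fold changes ran from -0.52 to 0.56 in NASH and from -0.42 to 0.05 in NASH-CH.

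Of 9 lipase genes, Lpl rose in both models. It encodes lipoprotein lipase, which frees fatty acids from circulating triglyceride and is low in healthy adult hepatocytes. It had 5.66, 7.38 and 7.85 CPM in control, 16.7, 19.4 and 27.6 CPM in NASH and 15.2, 26.0 and 108.0 CPM in NASH-CH rats, so no treated rat overlapped the controls. Groups that do not overlap were found for 3.16% of all tested genes in NASH and 7.11% in NASH-CH against control. For Lpl the log2 fold change was 1.58 (SE 0.36, limma adjusted p = 0.0260) in NASH, held in 12 of 18 fits without 1 rat, and 2.10 (limma adjusted p = 0.000811) in NASH-CH, held in 18 of 18. Mgll, which ends triglyceride breakdown at the monoglyceride, fell by 0.66 on the log2 scale in NASH-CH (limma adjusted p = 0.00791), a call lost with the library total alone as scale (-0.41, limma adjusted p = 0.0507, range over alternatives 0.00108 to 0.0507). In NASH its log2 fold change was -0.55 and all 6 rats lay below every control, with an adjusted p of 0.0610 by limma, 0.0477 by edgeR and 0.0163 by DESeq2 (range over alternatives 0.0100 to 0.170). Abhd5, the activator of the Pnpla2 lipase, did not pass in either model by limma.

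Pnpla3, a droplet-bound relative of Pnpla2, was chosen after its values were seen. It had 0.287, 45.2 and 53.8 CPM in control, 0.0419, 1.08 and 5.88 CPM in NASH and 1.04, 4.04 and 7.86 CPM in NASH-CH rats. Control rat 6 was the lowest control at 0.287 CPM, and every treated rat lay below the control mean. Its log2 fold change was -4.54 (SE 1.91, limma adjusted p = 0.176) in NASH and -2.52 (SE 1.08, limma adjusted p = 0.120) in NASH-CH, so limma called neither. With all rats kept, edgeR gave adjusted p of 0.0124 and 0.0107 and DESeq2 of 0.000276 and 0.00393, and so called both. Without control rat 6 both passed by limma too, at -5.78 (limma adjusted p = 0.00233) and -3.75 (limma adjusted p = 9.93e-05), where the alternatives spanned 0.000276 to 0.286 and 9.93e-05 to 0.222. In each model that was the 1 fit of the 18 without 1 rat in which limma called Pnpla3.

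**Figure D5:**
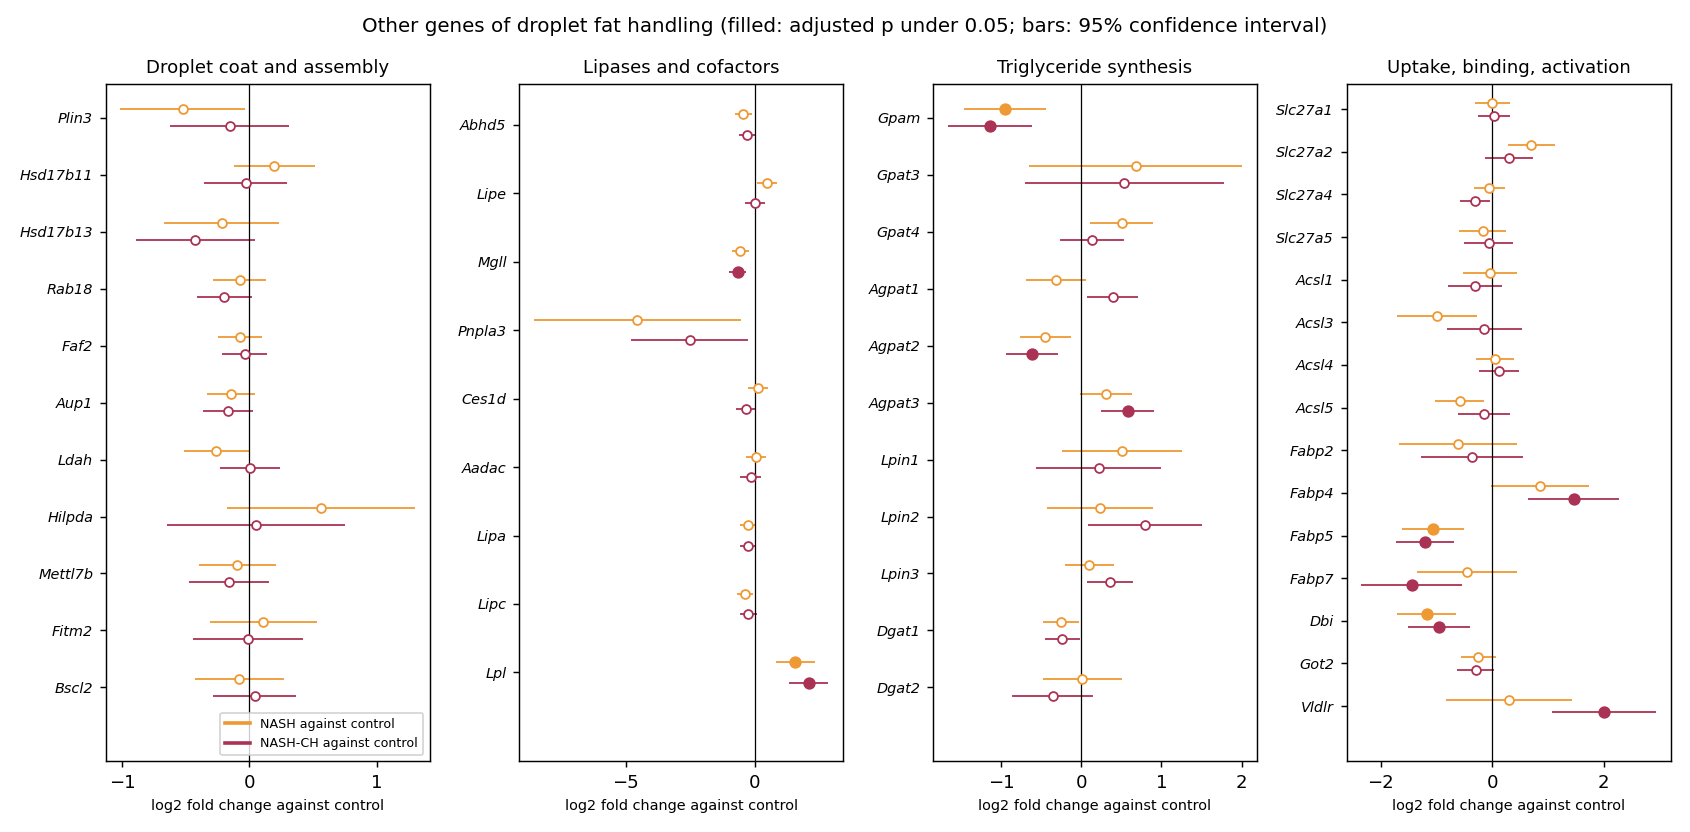
Log2 fold change against control (x axis) of the 46 tested genes in the 4 role lists (y axis), NASH in orange and NASH-CH in red, with 95% confidence intervals as bars and filled points for an adjusted p under 0.05. Lpl, Gpam, Fabp5 and Dbi are filled in both models, and Pnpla3 has the widest interval.

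Of 11 tested genes of triglyceride synthesis, Gpam, the mitochondrial acyltransferase that begins the pathway, fell in both models. It had 54.6, 111 and 156 CPM in control, 35.2, 53.9 and 99.6 CPM in NASH and 38.8, 46.2 and 63.2 CPM in NASH-CH rats. The groups overlapped, and control rat 6 was again the lowest control. Gpam changed by -0.95 (log2, SE 0.24, limma adjusted p = 0.0393) in NASH and by -1.14 (limma adjusted p = 0.00490) in NASH-CH. Among the acyltransferases of the next step, Agpat2 fell by 0.61 and Agpat3 rose by 0.58 in NASH-CH (log2, limma adjusted p = 0.0114 and 0.0170). With the library total alone as scale Agpat2 was at -0.35 and did not pass (limma adjusted p = 0.0575, range over alternatives 0.00103 to 0.0575). Agpat1, with 32 to 59 counts per NASH rat, was higher in NASH-CH than in NASH by 0.70 (limma adjusted p = 0.0104). Dgat1 and Dgat2, which complete triglyceride, passed in neither model by limma.

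Of 15 tested genes of fatty acid uptake, binding and activation, Fabp5, a binding protein of epidermis and macrophages, and Dbi, which binds acyl-CoA, fell in both models. Fabp5 had log2 fold changes of -1.05 (SE 0.26, limma adjusted p = 0.0360) in NASH and -1.20 (limma adjusted p = 0.00306) in NASH-CH. Dbi had -1.17 (SE 0.25, limma adjusted p = 0.0201) and -0.95 (limma adjusted p = 0.0209). The NASH calls of Gpam and Fabp5 held in 9 of 18 fits without 1 rat each, and that of Dbi in 14.

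Fabp4 and Vldlr rose beside Cd36 in NASH-CH. Fabp4, the binding protein of adipocytes, macrophages and some endothelium, had 1.75, 2.22 and 3.74 CPM in control, 1.62, 4.64 and 8.22 CPM in NASH and 3.65, 5.90 and 14.7 CPM in NASH-CH rats. Its log2 fold change was 1.47 in NASH-CH (limma adjusted p = 0.0156), and 1 NASH-CH rat overlapped the highest control. Vldlr, a receptor for triglyceride-rich lipoproteins, had 0.430, 0.555 and 0.992 CPM in control, 0.540, 0.741 and 1.01 CPM in NASH and 1.36, 2.23 and 4.75 CPM in NASH-CH rats. NASH-CH rats lay above all others, and the log2 fold change was 2.01 against control (limma adjusted p = 0.00507) and 1.71 against NASH (limma adjusted p = 0.0188). Groups that do not overlap were found for 7.11% of all tested genes against control and 3.46% against NASH. The NASH rats held 14 to 32 Vldlr counts each. The call against NASH was lost in 2 of 28 alternatives (range of limma, edgeR and DESeq2 adjusted p 3.37e-06 to 0.0658). The fifth gene of this list that passed in NASH-CH was Fabp7, a binding protein known from brain, at -1.44 (limma adjusted p = 0.0290), named after its values were seen. Its call held in 14 of 18 fits without 1 rat, lost without control rat 2 or 6 or NASH-CH rat 5 or 6, and was lost in 7 of 29 alternatives in all (range of limma, edgeR and DESeq2 adjusted p 0.00445 to 0.0923).

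Cd36, Lpl, Fabp4 and Vldlr are used by endothelial cells, macrophages or adipocytes too, so marker lists of these cells are given beside them. Over 6 macrophage markers the summed level was 198 to 375 CPM in control rats, 155 to 229 CPM in NASH rats and 132 to 197 CPM in NASH-CH rats. In NASH-CH 4 of the 6 were lower (limma), where 8.6% of all genes were. Those 4 were Cd163, Clec4f, Marco and Csf1r, while Adgre1 (-0.33, limma adjusted p = 0.0547) and Cd68 (0.15, limma adjusted p = 0.490) did not pass. By immunostaining the paper counted more CD68- and CD163-positive macrophages in NASH-CH than in control livers, which is protein in cells and not RNA of whole tissue. Over 5 endothelial markers the summed level was 179 to 248, 231 to 261 and 129 to 229 CPM in control, NASH and NASH-CH rats. Of these markers 0 passed in either model by limma, where 3.12% of all genes passed in NASH and 17% in NASH-CH. The 5 adipocyte markers summed to 5.20 to 6.06, 5.28 to 6.91 and 2.75 to 5.27 CPM, most of it from Cfd. Of 6 stellate cell and myofibroblast markers, with sums of 58.1 to 75.4, 49.2 to 63.2 and 52.3 to 91.5 CPM, Des, Rgs5 and Col1a1 were higher and Lrat lower in NASH-CH. There 8.38% of all genes were higher and 8.6% lower (limma). In NASH Rgs5 was higher (limma adjusted p = 0.0110), and Lrat and the macrophage marker Marco were lower (limma adjusted p = 0.0260 and 0.0168). Of all genes 1.58% were higher and 1.54% lower in NASH (limma). The 5 cholangiocyte markers summed to 7.72 to 9.90, 6.02 to 11.8 and 5.90 to 39.4 CPM, with all 5 highest in NASH-CH rat 5 within its group. Of the 3 that could be tested, 0 passed against control by limma, where 3.12% of all genes passed in NASH and 17% in NASH-CH. Between NASH-CH and NASH livers 2 stellate cell markers and 1 cholangiocyte marker were higher, and the adipocyte marker Cfd was lower (limma). There 1.81% of all genes were higher and 2.39% lower. The part of cell makeup in the results was not tested beyond these values.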

How the data were processed

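RNA of 18 rat livers was sequenced as stranded mRNA libraries, 1 per rat, and groups follow the group label of each sample. The labels name the RNAqueous-Micro kit and the methods another one. Per the submitters' processing notes, FastQC, Trim Galore, STAR, RSEM and limma were used on Rnor_6.0, with versions not given in the sources used here. The authors deposited expected counts from RSEM in 1 table for each rat, without correction for depth or length.

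Expected counts were rounded, scaled by TMM (edgeR 4.0.16) and tested by limma-voom (limma 3.58.1, R 4.3.3) in 1 fit of 18 rats. Genes were kept by edgeR's filterByExpr, and p-values were adjusted by the Benjamini-Hochberg method over all 12904 tested genes, with a threshold of 0.05. Log2 CPM used a prior count of 2. Exact permutation tests were two-sided on log2 CPM. The fits were tested on simulated data. Alternatives included edgeR's quasi-likelihood test, DESeq2 1.42.0, other scalings and filters, and leaving out each rat.

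The genes of the set, the role lists and the marker lists were chosen with earlier results of these data known. Besides the set, the text names up to 4 genes per role list and comparison with the smallest adjusted p under 0.05, and for 4 genes the 3 with the most similar levels. Scp2 and Pecam1 had no row under that symbol. Every pair of rats in a group differed by more than counting error (chi-square over its degrees of freedom at least 29.8). The labels do not say whether rats were processed in separate batches. All 10 genes matched RefSeq tables of GRCr8 by symbol. Figures were drawn with matplotlib 3.10.9 in Python 3.11.15.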

Additional observations from a re-analysis of the deposited data

Results flagged for a closer look

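Dixon's gap test was applied to the CPM of the 6 rats of each group for the 10 genes and 11 other named genes. Of 63 groups in all, 6 held a rat apart from the others, each time the highest. The test's rate of 1 in 20 groups holds for normally distributed values, and CPM was not transformed. The 11 genes were taken because they had been called in these data, so the number of flags is not set against chance. Control rat 6 had 2.04 CPM of Plin5, the next control 1.25. Control rat 5 had 1.98 CPM of Cidea, the next 0.707. NASH-CH rat 5 had 108.0 CPM of Lpl, the next 45.2, and 14.7 CPM of Fabp4, the next 6.68. Control rat 3 had 3.73 CPM of Fabp4, the next 2.39. NASH-CH rat 2 had 3.83 CPM of Agpat1, the next 2.79. The gaps were 0.644 to 0.792 of the group's range.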

How the results depend on the processing

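Each group held 6 rats, which limits these comparisons. Plin4 had too few counts to be tested, also in the deeper NASH-CH libraries, and counts were low for Plin5 and Cidea. Counts are given in the order NASH against control, NASH-CH against control and NASH-CH against NASH. Of the 9 genes, 0, 2 and 0 passed, and of all genes 403, 2192 and 542. Calls in the first comparison rose to 652 of all genes with edgeR. With DESeq2, 2, 4 and 0 of the 9 passed and 1228, 2841 and 949 of all genes. With library size only, 865 of all genes passed in the first comparison, 90.8% of them higher beside 50.6% with TMM; NASH-CH against control went to 85% higher from 49.4%, and NASH-CH against NASH to 32.4% from 43.2%. Over all genes the median log2 fold change became 0.23, 0.27 and 0.04. With no filter on low counts, 268, 5495 and 2649 of all genes passed, with 27.8% of the calls higher in NASH-CH against control and 19.7% in NASH-CH against NASH. With only the 2 groups compared, 1, 0 and 0 of the 9 passed and 644, 1408 and 349 of all genes. With sample quality weights 1, 2 and 0 of the 9 passed, and 1509 of all genes in the first comparison. With control rat 6 and NASH-CH rat 5 both left out, 2, 3 and 0 of the 9 passed, and 1413 of all genes in the first. Leaving out each rat in turn gave 0 to 1, 1 to 3 and 0 of the 9, and 128 (without control rat 3) to 982 (without control rat 6), 1519 to 2409 and 346 to 591 of all genes. The cause was not tested.

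The signs that reversed all belonged to values that had not passed. In NASH against control, Pnpla2 was at 0.098 with library size only and Cidec at -0.022 without both rats. In NASH-CH against control, Pnpla2 was at -0.0018 with edgeR and -0.0090 with DESeq2, and Cidec at 0.22 with library size only, 0.099 with quality weights and 0.059 without both rats. In NASH-CH against NASH, Cideb was at -0.0040 with no filter and -0.011 with NASH-CH counts thinned, Plin2 at 0.072, Cidec at 0.072 and Fabp1 at 0.060 with quality weights, and the same 3 at 0.059, 0.081 and 0.062 without both rats. Leaving out 1 rat, Cidec ran from -0.031 to 0.064 in NASH and from -0.13 to 0.12 in NASH-CH, and Pnpla2 from -0.063 to 0.12 in NASH-CH. Between the models Plin2 ran from -0.22 to 0.06, Cidea from -0.36 to 0.051, Cideb from -0.070 to 0.14, Cidec from -0.16 to 0.08 and Fabp1 from -0.34 to 0.06.

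The labels number the rats 1 to 6 in each group without saying that a number marks a shared handling, and deviations of rats with the same number had mean correlations of 0.0516, 0.0732 and 0.0154, so the numbers were not taken to pair the rats. With a replicate block 0, 2 and 0 of the 9 passed and 444, 2095 and 540 of all genes.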
